A study of Rattus norvegicus with 8 samples.

Results

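Transcripts of 10 transcription factors and cofactors that set the fate of Schwann cells were followed in rat sciatic nerve: Sox10, Sox8, Olig1, Pou3f1, Egr2, Zeb2, Nab2, Jun, Sox2 and Egr1. They were chosen by symbol, 10 of the 32545 Ensembl genes in the deposited values, and all 10 passed the filter on low values. RNA-seq was available for 3 PEG-fused peripheral nerve allografts (PNAs), 3 negative control (NC) PNAs and 2 unoperated control nerves (Unop), each from a different animal. All were outbred female Sprague Dawley rats of 3 to 6 months. For both kinds of graft, a segment of the host sciatic nerve was removed and replaced by a donor nerve from another untreated rat, without tissue matching or immunosuppression, and the grafts were excised at 14 days postoperatively (PO). PEG-fused and NC PNAs alike received hypotonic saline, methylene blue and microsutures, and only the PEG-fused PNAs received the membrane fusogen polyethylene glycol (PEG). The Unop nerves had no surgery, so a comparison with them covers injury, grafting, a foreign donor and the passage of 14 days together.

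Schwann cells are the glia of peripheral nerve, and SOX10 is needed for their lineage and for both their immature and myelinating states. In development, POU3F1 carries the cells into the promyelinating stage and, together with SOX10, switches on Egr2, whose product EGR2 (also called KROX20) drives myelin and lipid genes with its cofactors NAB1 and NAB2, while ZEB2 represses the inhibitors of differentiation. After injury the process runs in reverse: JUN, SOX2 and other factors oppose the EGR2 program, myelin genes are shut down, and a repair cell appears that supports axons with trophic factors. SOX8 is a close relative of SOX10, OLIG1 is a glial basic helix-loop-helix factor, and EGR1 is an immediate-early relative of EGR2 associated with immature and injured Schwann cells.

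Egr1 and Egr2 encode related zinc finger proteins that stand on opposite sides of this switch, and their levels moved in opposite directions against Unop nerves, so the sequence just before their starts is shown. RefSeq promoters (assembly GRCr8, 250 bases before to 50 after the start of a gene) were matched for 5 of the 10 factors, Sox2, Zeb2, Nab2, Egr1 and Egr2. The lines give the 150 bases that end at the base before the start, 5′ to 3′ on the strand of the gene, with matches to the CArG box, the binding motif of serum response factor, in capitals. They lie at chr18:26736928-26737077 on the plus strand for Egr1 and at chr20:21054442-21054591 on the minus strand for Egr2.
Egr1: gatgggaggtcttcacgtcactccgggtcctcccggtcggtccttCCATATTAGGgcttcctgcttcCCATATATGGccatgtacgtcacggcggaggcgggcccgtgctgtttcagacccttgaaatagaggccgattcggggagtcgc
Egr2: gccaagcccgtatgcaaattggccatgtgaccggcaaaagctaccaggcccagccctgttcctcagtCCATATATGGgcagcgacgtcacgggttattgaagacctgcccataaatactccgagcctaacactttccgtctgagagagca
Both windows held CCATATATGG with its first base 83 bases before the start, and Egr1 held a further match, CCATATTAGG, 105 bases before it. A CArG box was found in 1.64% of all 33469 promoters and in 2 of the 5 matched factors. The EGR site GCGNGGGCG (4.98% of all promoters), the AP-1 site TGANTCA (7.33%) and the cAMP response element TGACGTCA (1.83%) were each found in 0 of the 5. The SOX site ACAAAG (18.8%) was found in Zeb2 alone, 139 bases before its start. Motifs were searched on both strands, and no match overlapped one of another motif. A match describes the letters and not a bound site.

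Values are normalized read counts, the reads of a gene divided by a size factor for the library, and replicates are named PEG 1 to 3, NC 1 to 3, and Unop 1 and 2. Libraries held 32472925 to 39959620 reads on genes. Fold changes on the log2 scale, with standard errors (SE), are from limma on log2(normalized count + 1), fitted to the 8 libraries together over 16478 genes, and a transcript is called significantly upregulated or downregulated at a Benjamini-Hochberg adjusted p under 0.05. This scale understates changes of low genes, and comparisons with Unop rest on 2 nerves and on the spread shared by the 3 groups. The 3 comparisons share libraries and are not independent of each other. In whole tissue, fewer cells of a type and less RNA per cell cannot be told apart. Markers of skeletal muscle fibres set libraries of the same group apart: their 6 genes summed to 682788 in NC 1, 11663 in NC 2 and 251194 in NC 3, to 2835 to 16509 in PEG-fused PNAs, and to 35246 and 6061 in Unop nerves. Results are therefore also given with NC 2 as the only NC library where that changed a call.

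Between PEG-fused and NC PNAs, 4 of the 10 factors were significantly upregulated (Sox10, Sox8, Jun and Sox2) and Nab2 was significantly downregulated. Over all tested genes, 15.0% were called higher and 13.9% lower. The median log2 fold change of the 10 was 0.48, and that of all tested genes was 0.00. With an additional requirement of a fold change over 2, met by 11.5% of tested genes, Sox8 and Sox2 remained. Compared to Unop nerves, PEG-fused PNAs had significantly higher Jun, Sox2 and Egr1 (29.1% of tested genes were higher) and significantly lower Sox10 and Egr2 (28.6% were lower). NC PNAs had significantly higher Jun, Egr1 and Nab2 than Unop nerves, where 32.2% of genes were higher, and significantly lower Sox10, Sox8 and Egr2, where 32.3% were lower. The counts among the 10 factors against Unop nerves were thus near the shares of all tested genes. A fold change over 2 was met by 4 factors in PEG-fused PNAs against Unop (32.3% of tested genes), namely Egr2, Jun, Sox2 and Egr1, and by 4 in NC PNAs against Unop (38.6%), namely Sox10, Sox8, Egr2 and Egr1. Median log2 fold changes of the 10 were 0.36 and -0.01 in these comparisons.

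**Figure D1:**
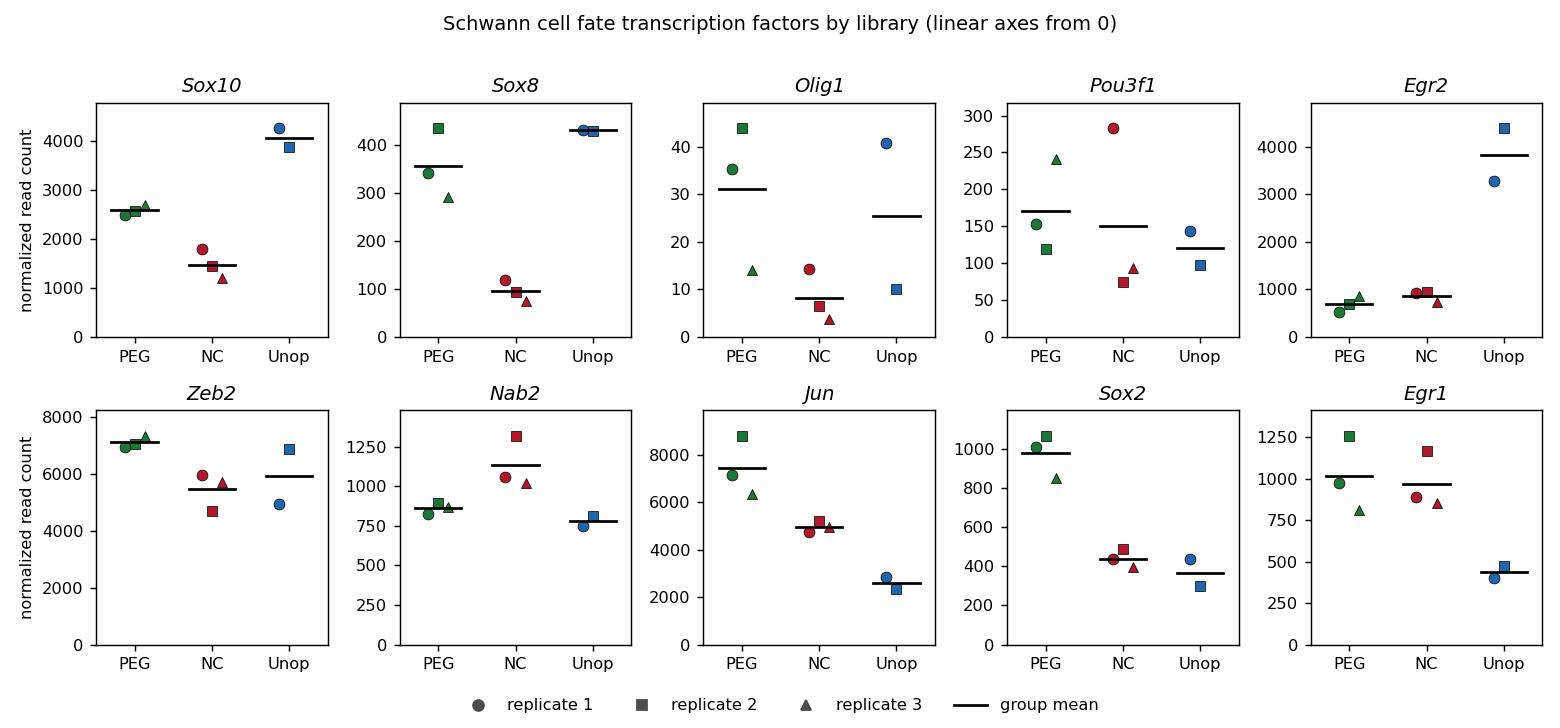
Normalized read count of each of the 10 factors by library, on linear axes that start at 0, with groups on the horizontal axis, a point for each library (circle, square and triangle for replicates 1, 2 and 3) and a line at the group mean. Sox10, Sox8, Zeb2, Jun and Sox2 lay higher in all 3 PEG-fused PNAs than in all 3 NC PNAs, though the difference of Zeb2 was not called. The share of all tested genes with such a separation was not computed. Egr2 lay at 3271 and 4398 in the Unop nerves and at 941 or below in the grafts.

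Of the lineage factors, Sox10 and Sox8 were lower in NC PNAs than in both other groups, and Olig1 was not called in any comparison. Sox10 stood at 2491, 2575 and 2686 in PEG-fused PNAs, at 1792, 1438 and 1196 in NC PNAs, and at 4257 and 3864 in Unop nerves. The 3 groups did not overlap, with PEG-fused PNAs between the others. PEG-fused PNAs averaged 2584 ± 97.5 (SD, n = 3), NC PNAs averaged 1475 ± 299 (SD, n = 3), and the Unop mean was 4060 ± 279 (SD, n = 2). Sox10 was thus 1.75-fold higher in PEG-fused than in NC PNAs (log2 fold change 0.83, SE 0.14, adjusted p = 0.00394 by limma). It fell by 0.65 (SE 0.15, adjusted p = 0.00678) from Unop nerves to PEG-fused PNAs and by 1.48 (SE 0.15, adjusted p = 5.98e-05) to NC PNAs. The difference between PEG-fused PNAs and Unop nerves did not pass without Unop 1, at -0.58 (adjusted p = 0.0519).

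Sox8, which overlaps with Sox10 in function, had the largest significant difference between the grafts among the 10. It stood at 342, 436 and 293 in PEG-fused PNAs, at 119, 93.6 and 75.2 in NC PNAs, and at 431 and 430 in Unop nerves. Each PEG-fused PNA held over 2 times the count of the highest NC PNA, and PEG 2 lay above both Unop nerves. Sox8 was 3.72-fold higher in PEG-fused than in NC PNAs (log2 fold change 1.89, SE 0.21, adjusted p = 0.000926 by limma) and 4.49-fold higher in Unop nerves than in NC PNAs (adjusted p = 7.01e-05). Between PEG-fused PNAs and Unop nerves the log2 fold change was -0.29 with a 95% interval from -0.83 to 0.25 (adjusted p = 0.318).

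Olig1 had only 4 to 47 reads per library. Its values were 35.2, 43.9 and 14.1 in PEG-fused PNAs, 14.3, 6.45 and 3.86 in NC PNAs, and 40.8 and 10.01 in Unop nerves. The groups overlapped, NC 1 lying just above PEG 3. The log2 fold change between the grafts was 1.82 with a 95% interval from 0.30 to 3.35 (adjusted p = 0.0729 by limma). It passed without NC 1, at 2.27 (adjusted p = 0.0467), and with DESeq2 on the whole reads, at 1.91 (adjusted p = 0.0451). No difference from Unop nerves was called for Olig1, except for NC PNAs without Unop 2, at -2.35 (adjusted p = 0.0450).

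Of the 4 factors of the myelinating side, Egr2 and Nab2 were called in at least 1 comparison, and Pou3f1 and Zeb2 in none. Egr2, the driver of myelin genes, stood at 514, 696 and 868 in PEG-fused PNAs, at 935, 941 and 730 in NC PNAs, and at 3271 and 4398 in Unop nerves. Every graft lay below both Unop nerves by over 3-fold, and the grafts overlapped each other. Relative to Unop nerves, Egr2 was 5.53-fold lower in PEG-fused PNAs (log2 fold change -2.48, SE 0.23, adjusted p = 4.36e-05 by limma) and 4.41-fold lower in NC PNAs (-2.13, SE 0.23, adjusted p = 7.11e-05). Between the grafts the log2 fold change was -0.35, with a 95% interval from -0.82 to 0.12 (adjusted p = 0.236). It was -0.15 without PEG 1 and -0.53 without PEG 3. Sox10 was higher in PEG-fused than in NC PNAs, and Egr2, a gene that SOX10 acts on, was not detectably so.

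Pou3f1, which precedes Egr2 in development, varied more within groups than between them. It stood at 153, 120 and 241 in PEG-fused PNAs, at 283, 74.2 and 93.6 in NC PNAs, and at 144 and 97.6 in Unop nerves. NC 1 held the highest count of the 8 libraries and NC 2 the lowest. The 95% interval of the log2 fold change between the grafts ran from -0.75 to 1.51 (adjusted p = 0.595 by limma). No difference was detectable between either graft and Unop nerves.

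Zeb2 stood at 6955, 7052 and 7344 in PEG-fused PNAs, at 5957, 4701 and 5709 in NC PNAs, and at 4955 and 6887 in Unop nerves. All 3 PEG-fused PNAs lay above the other 5 libraries, by a small margin. The log2 fold change between the grafts was 0.39 (SE 0.14) and did not pass (adjusted p = 0.0655 by limma), though it did with DESeq2 on the whole reads (adjusted p = 0.0423) and with the grafts fitted alone (adjusted p = 0.0310). The log2 fold change from Unop nerves was 0.28 in PEG-fused PNAs (adjusted p = 0.146), and 0.52 without Unop 2 (adjusted p = 0.0223). Zeb2 is also used by macrophages and T cells, whose markers differed between the groups as given below.

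Nab2, a corepressor of EGR1 and EGR2 whose gene is itself induced by EGR proteins, was highest in NC PNAs. It stood at 825, 892 and 868 in PEG-fused PNAs, at 1061, 1320 and 1020 in NC PNAs, and at 749 and 814 in Unop nerves. The grafts did not overlap, and both Unop nerves lay below every graft. Nab2 was 1.32-fold higher in NC than in PEG-fused PNAs (log2 fold change -0.39 for PEG-fused against NC, SE 0.11, adjusted p = 0.0364 by limma). This call was lost without PEG 1 (adjusted p = 0.107), PEG 2 (0.0823), PEG 3 (0.0925) or NC 2 (0.0843). NC PNAs also exceeded Unop nerves, with a log2 fold change of 0.53 (SE 0.13, adjusted p = 0.00646), and the value for PEG-fused PNAs was 0.14 (adjusted p = 0.372).

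All 3 factors of the repair and immature state exceeded their Unop levels in PEG-fused PNAs, where 29.1% of all tested genes were called higher. Jun, the AP-1 subunit that drives the repair program, stood at 7146, 8808 and 6345 in PEG-fused PNAs, at 4742, 5201 and 4968 in NC PNAs, and at 2844 and 2330 in Unop nerves. The 3 groups did not overlap. Against Unop nerves, Jun was 2.87-fold higher in PEG-fused PNAs (log2 fold change 1.52, SE 0.15, adjusted p = 5.69e-05 by limma) and 1.92-fold higher in NC PNAs (0.95, SE 0.15, adjusted p = 0.000594). PEG-fused PNAs exceeded NC PNAs by 0.57 on the log2 scale (SE 0.13, adjusted p = 0.0147). With NC 2 as the only NC library that value was 0.50 and did not pass (adjusted p = 0.134).

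Sox2, which holds Schwann cells immature and opposes Egr2, stood at 1008, 1067 and 852 in PEG-fused PNAs, at 435, 485 and 396 in NC PNAs, and at 437 and 298 in Unop nerves. PEG-fused PNAs lay apart from all other libraries, while NC 1 and Unop 1 were almost level. Sox2 was 2.22-fold higher in PEG-fused than in NC PNAs (log2 fold change 1.15, SE 0.17, adjusted p = 0.00221 by limma) and 2.66-fold higher than in Unop nerves (1.43, SE 0.19, adjusted p = 0.000281). For NC PNAs against Unop nerves the log2 fold change was 0.28, with a 95% interval from -0.15 to 0.70 (adjusted p = 0.217). It passed without Unop 1, at 0.55 (adjusted p = 0.0336).

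Egr1 did not differ detectably between the grafts. It stood at 975, 1261 and 814 in PEG-fused PNAs, at 887, 1166 and 856 in NC PNAs, and at 400 and 472 in Unop nerves. The grafts overlapped throughout, and all 6 lay above both Unop nerves. The log2 fold change between the grafts was 0.06, with a 95% interval from -0.36 to 0.48 (adjusted p = 0.838 by limma), and its sign depended on single libraries. Against Unop nerves, Egr1 was 2.33-fold higher in PEG-fused PNAs (log2 fold change 1.20, SE 0.21, adjusted p = 0.00127) and 2.22-fold higher in NC PNAs (1.14, SE 0.21, adjusted p = 0.00137). Over the same libraries Egr2, which shares the CArG letters shown above, was lower in every graft than in both Unop nerves. The EGR1 and EGR2 genes are immediate-early genes in many cells. A sum was taken of 14 other immediate-early genes, 5 of them also among the AP-1 and EGR relatives below. It lay at 18085 to 25099 in PEG-fused PNAs, 19059 to 23508 in NC PNAs and 15110 to 16285 in Unop nerves. Atf3 weighed most in the PEG-fused sums, at 5887, 9031 and 4333, beside 855 and 795 in Unop nerves. The sum without Atf3 was not computed, so a rise of the other genes cannot be read from it. Limma called 6 of the 14 higher and 2 lower against Unop nerves in PEG-fused PNAs, beside 29.1% and 28.6% of all tested genes. For NC PNAs these counts were 7 and 2, beside 32.2% and 32.3%.

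**Figure D2:**
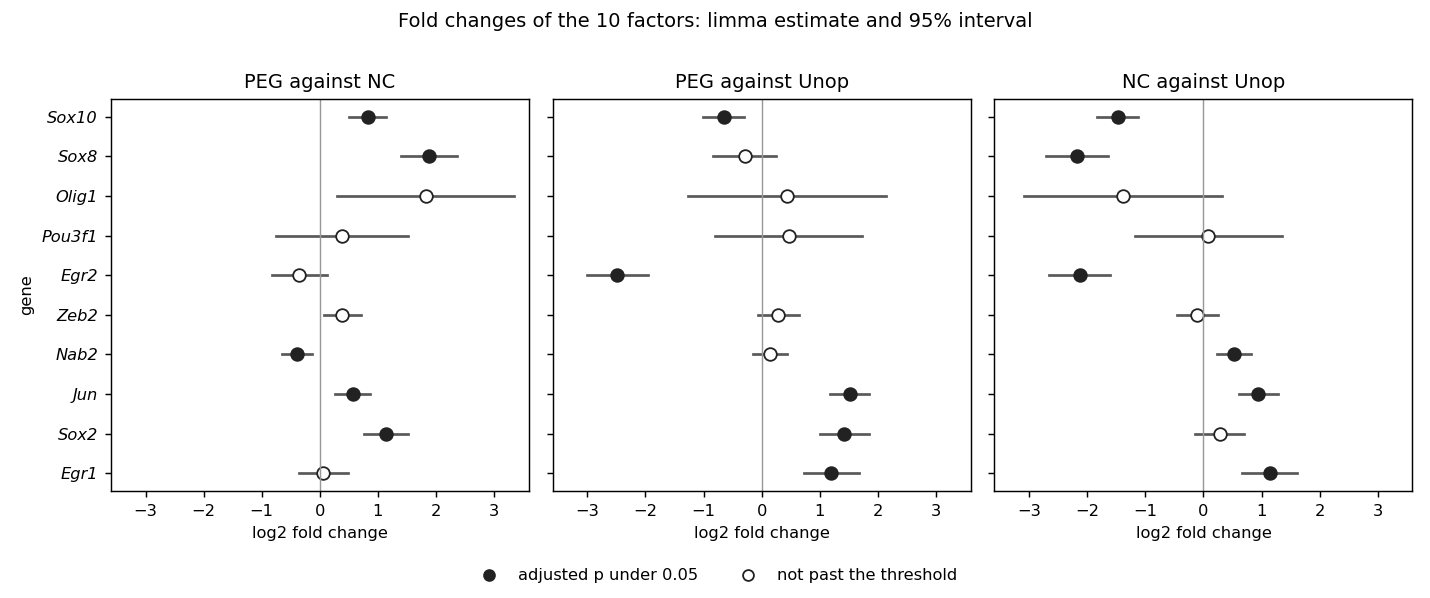
Log2 fold changes of the 10 factors by limma, with 95% intervals as bars, for the 3 comparisons, with filled points at an adjusted p under 0.05. Intervals of Olig1 and Pou3f1 are the widest in each comparison, and Egr2 is the factor farthest below 0 in PEG-fused PNAs against Unop nerves, at -2.48.

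Ratios of factors within a library were compared because the factors oppose or follow each other in Schwann cells. In whole tissue a ratio need not describe 1 cell type, as Jun, Egr1 and Nab2 are expressed in fibroblasts as well. The part of fibroblasts, immune cells and other cells in the ratios was not tested. Each is a log2 ratio of normalized counts, not corrected for gene length, so only differences between groups are read. An exact two-sided permutation test over libraries was used for 7 ratios in each comparison, and it cannot give less than p = 0.1 with 3 against 3 or p = 0.2 with 3 against 2. The ratio of Egr2 to Jun was -3.79, -3.66 and -2.87 in PEG-fused PNAs, -2.34, -2.46 and -2.76 in NC PNAs, and 0.20 and 0.92 in Unop nerves. PEG-fused PNAs were thus the lowest and Unop nerves the highest, without overlap. The difference between the grafts was -0.92 (exact permutation p = 0.1, adjusted p = 0.175 over the 7 ratios), and PEG 3 and NC 3 lay nearest to each other. Against Unop nerves the ratio fell by 4.00 in PEG-fused PNAs and by 3.08 in NC PNAs (exact permutation p = 0.2 each).

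The ratio of Egr2 to Sox2 separated the grafts further, with means of -0.52 ± 0.51 for PEG-fused PNAs (SD, n = 3), 0.98 ± 0.11 for NC PNAs (SD, n = 3) and 3.39 ± 0.69 for the Unop group (SD, n = 2). The difference between the grafts was -1.50 (exact permutation p = 0.1, adjusted p = 0.175). Relative to Sox10, Egr2 was 2.26-fold lower in PEG-fused than in NC PNAs, a log2 difference of -1.18 without overlap (exact permutation p = 0.1). Nab2 relative to Egr1 was also lower in PEG-fused PNAs, by -0.45 (exact permutation p = 0.1). The other 3 ratios overlapped between the grafts: Jun to Sox10 differed by -0.26 (exact permutation p = 0.4), Sox2 to Sox10 by 0.32 (p = 0.3) and Pou3f1 to Egr2 by 0.73 (p = 0.4). Jun and Sox2 were therefore higher in PEG-fused than in NC PNAs as transcripts, but their ratios to Sox10 overlapped. All 7 ratios were without overlap between either graft and Unop nerves, Jun to Sox10 rising by 2.17 in PEG-fused and by 2.43 in NC PNAs (exact permutation p = 0.2 each). The share of other gene pairs without overlap was not computed for any comparison. The count of 7 is therefore not read as a result about these factors. As a different measure, limma called 9513 of 16478 single genes in PEG-fused PNAs and 10627 in NC PNAs against Unop nerves. The ratios share members, Egr2 above all, and are not separate results.

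**Figure D3:**
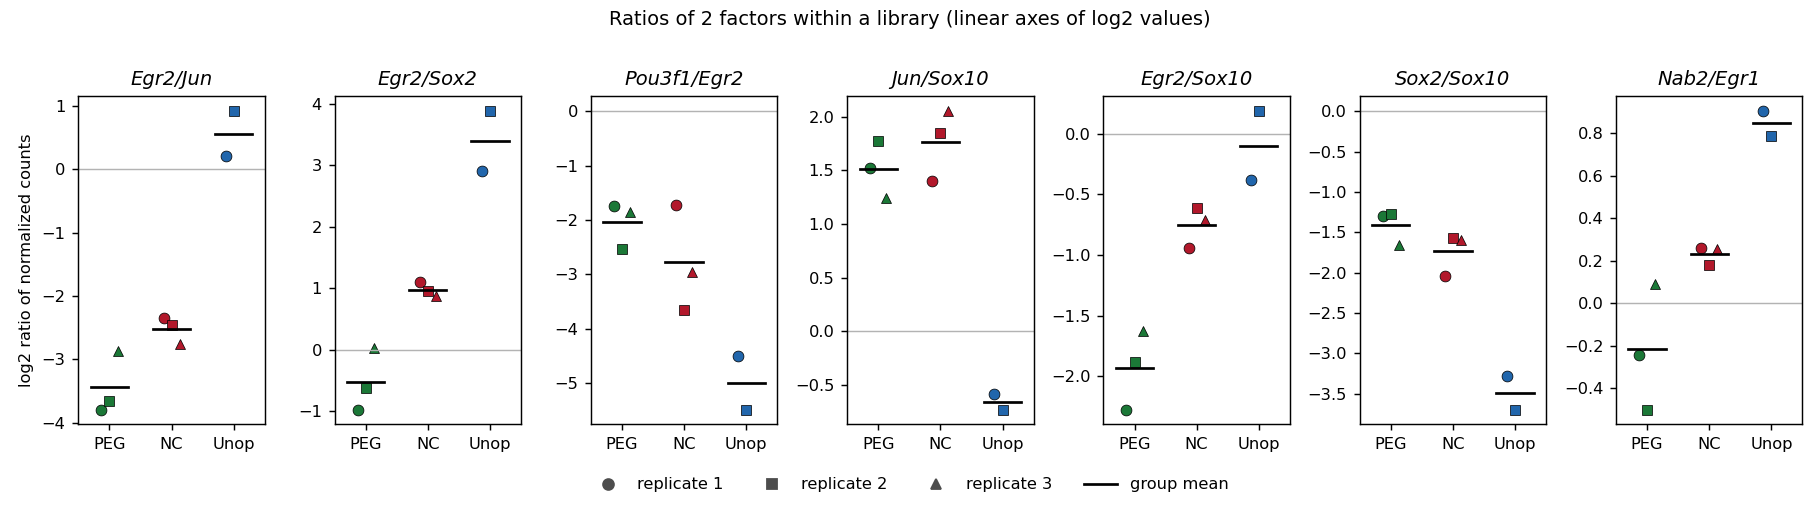
Log2 ratios of normalized counts for 7 pairs of factors by library, with groups on the horizontal axis, a point for each library and a line at the group mean. The ratio of Egr2 to Jun is highest in Unop nerves (mean 0.56) and lowest in PEG-fused PNAs (mean -3.44), and Jun to Sox10 overlaps between the grafts.

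Relatives and partners of the factors were taken from lists of regulators. Of 9 tested AP-1, ATF3 and EGR relatives, 2 were higher and 1 lower in PEG-fused than in NC PNAs, with a median log2 fold change of 0.30. These counts are near the shares of all tested genes (15.0% higher and 13.9% lower). Atf3, an injury-induced partner of JUN, stood at 5887, 9031 and 4333 in PEG-fused PNAs, 2018, 2977 and 2010 in NC PNAs, and 855 and 795 in Unop nerves. Its groups did not overlap (log2 fold change 1.42 between the grafts, adjusted p = 0.00565 by limma, lost with NC 2 as the only NC library). Fosl1, another AP-1 subunit, was likewise higher in PEG-fused PNAs (1.49, adjusted p = 0.00233). Junb, a JUN relative prominent in activated lymphocytes, was lower (-0.53, adjusted p = 0.0157, lost without PEG 2). Against Unop nerves, 6 of the 9 were higher in PEG-fused PNAs (median 1.82, where 29.1% of tested genes were higher) and 7 in NC PNAs (median 1.40, 32.2% of tested genes), among them Fos (2.48 and 1.89) and Egr3 (2.16 and 2.69). The only relative lower than in Unop nerves was Nab1, the other EGR cofactor, at -1.53 in PEG-fused PNAs (adjusted p = 5.35e-06) and -1.34 in NC PNAs (adjusted p = 6.06e-06). Nab1 and Nab2 therefore had log2 fold changes of opposite sign against Unop nerves in both grafts, with that of Nab2 not called in PEG-fused PNAs.

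Of 9 tested SOX, POU and ID relatives, 4 were higher and 1 lower in PEG-fused than in NC PNAs (median 0.44), beside 15.0% and 13.9% of all tested genes. Pou3f2, which can act in place of Pou3f1, stood at 133, 147 and 154 in PEG-fused PNAs, 88.5, 34.4 and 52.1 in NC PNAs, and 149 and 158 in Unop nerves. It was higher in PEG-fused than in NC PNAs (log2 fold change 1.40, adjusted p = 0.0126 by limma) and, unlike Pou3f1, did not overlap between the grafts. Sox9 (1.24, adjusted p = 0.0118) and Id4 (1.23, adjusted p = 0.00394), an inhibitor of basic helix-loop-helix factors, were also higher, and Id2, which opposes myelin gene expression and is common in lymphocytes, was lower (-1.07, adjusted p = 0.0108). Id3 was higher by 0.44 (adjusted p = 0.0454), a call lost without any of PEG 1, PEG 2, PEG 3, NC 2 or NC 3. Compared to Unop nerves, Id4 was lower in PEG-fused PNAs (-2.81) and NC PNAs (-4.04), and so were Sox9 (-1.55 and -2.79) and Id1 (-2.18 and -2.44).

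Of 28 other tested regulators of Schwann cell differentiation, 11 were higher and 8 lower in PEG-fused than in NC PNAs (median 0.29), beside 15.0% and 13.9% of all tested genes. Yap1, a Hippo pathway coactivator needed for myelination, stood at 1254, 1232 and 1230 in PEG-fused PNAs, 729, 477 and 660 in NC PNAs, and 1486 and 1734 in Unop nerves (log2 fold change 1.02 between the grafts, adjusted p = 0.00264 by limma). The Notch target Hey1 (1.30, adjusted p = 0.00748) and the ETS factor Etv1 (1.09, adjusted p = 0.0022) were also higher. Srebf2, the regulator of cholesterol synthesis, was lower in PEG-fused than in NC PNAs (-0.89, adjusted p = 0.00461), and so was Stat3 (-0.68, adjusted p = 0.000968), which many immune cells also use. Against Unop nerves, 7 were higher and 10 lower in PEG-fused PNAs (median -0.32), beside 29.1% and 28.6% of all tested genes. In NC PNAs, 10 were higher and 16 lower (median -0.47), beside 32.2% and 32.3%. Tfap2a, a factor of neural crest and Schwann cell precursors, stood at 64.0, 73.9 and 80.7 in PEG-fused PNAs, at 46.5, 29.0 and 42.4 in NC PNAs, and at 3.22 and 3.75 in Unop nerves, where it rested on about 3 reads. Runx2, which rises in injured Schwann cells and is also on the list of Jun-dependent genes, was higher in PEG-fused (3.87) and NC PNAs (3.25) than in Unop nerves, and Etv1 was lower (-1.86 and -2.95).

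**Figure D4:**
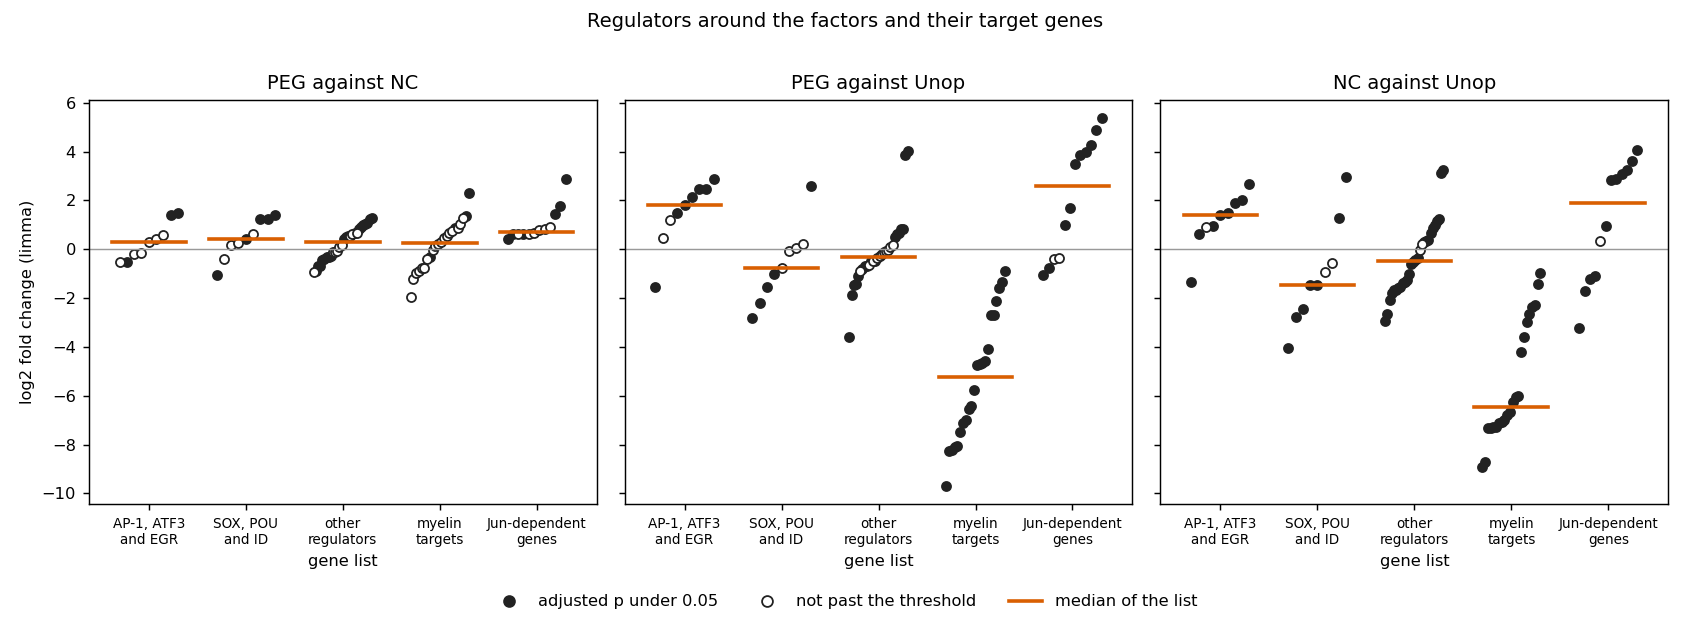
Log2 fold changes by limma of the tested genes of 5 lists in the 3 comparisons, with 1 point for each gene (filled at an adjusted p under 0.05) and a bar at the median of a list. All 22 myelin targets lie below 0 in both comparisons with Unop nerves (medians -5.24 and -6.46), and in PEG-fused against NC PNAs they lie on both sides of 0 (median 0.27).

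Genes downstream of the factors were read on the same scale. Of 22 myelin genes that SOX10 and EGR2 act on, all 22 were significantly lower in both grafts than in Unop nerves, where 28.6% and 32.3% of tested genes were lower, with median log2 fold changes of -5.24 in PEG-fused and -6.46 in NC PNAs. Mbp, myelin basic protein, stood at 9033, 8335 and 7432 in PEG-fused PNAs, 12599, 4296 and 2152 in NC PNAs, and 708519 and 855747 in Unop nerves. Its log2 fold changes of -6.56 and -7.32 against Unop nerves were larger in size than those of Egr2. Between the grafts, 3 were higher, 1 lower and 18 were not called, beside 15.0% higher and 13.9% lower over all tested genes. Gjb1, the connexin of myelinating Schwann cells, was higher in PEG-fused PNAs (142, 118 and 133 against 71.5, 20.4 and 11.6; log2 fold change 2.29, adjusted p = 0.016 by limma), and so was the adhesion gene Cadm4 (0.86, adjusted p = 0.00702). The call for Ugt8, a myelin galactolipid enzyme (1.38, adjusted p = 0.045), was lost without any of PEG 1, PEG 2, PEG 3, NC 2 or NC 3. NC 1 stood apart within its group in myelin genes: Ncmap, which encodes a protein of noncompact myelin, was 458 there, 30.1 in NC 2 and 7.72 in NC 3. The highest NC values of Sox10, Sox8, Olig1 and Pou3f1 were also those of NC 1, as was the highest muscle sum. NC 3, whose muscle sum of 251194 also exceeded that of NC 2, held the lowest NC values of Sox10, Sox8, Olig1 and Ncmap, and NC 2 held that of Pou3f1. The part of muscle RNA in these values was not tested.

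Of 12 genes that depend on Jun in repair cells, 6 were higher and 0 lower in PEG-fused than in NC PNAs by limma (median 0.73), beside 15.0% and 13.9% of all tested genes. Ngfr, the low-affinity neurotrophin receptor, stood at 15448, 20293 and 17141 in PEG-fused PNAs, 6423, 7128 and 5706 in NC PNAs, and 1140 and 713 in Unop nerves. It rose with Jun from Unop to NC to PEG-fused nerves without overlap, with a log2 fold change of 1.45 between the grafts (adjusted p = 0.00135). Shh, the ligand sonic hedgehog, followed another order, at 348, 214 and 390 in PEG-fused PNAs, 64.3, 28.0 and 37.6 in NC PNAs, and 413 and 366 in Unop nerves. Shh was higher in PEG-fused than in NC PNAs (2.88, adjusted p = 0.00102), and its log2 fold change against Unop nerves was -0.34 (adjusted p = 0.458). Fgf5 (1.77, adjusted p = 0.0191) and the adhesion molecule L1cam (0.63, adjusted p = 0.0276) were also higher in PEG-fused than in NC PNAs, each call being lost without PEG 2 or NC 3, that of Fgf5 also without PEG 1 and that of L1cam without PEG 3. Against Unop nerves, 8 of the 12 were higher and 2 lower in PEG-fused PNAs (median 2.60), where 29.1% and 28.6% of tested genes were so. In NC PNAs, 7 were higher and 4 lower (median 1.88), where 32.2% and 32.3% were. The trophic factors Bdnf and Gdnf stood at 84.3, 147 and 58.2, and at 35.2, 44.9 and 23.5, in PEG-fused PNAs, where Unop nerves held 1 to 3 reads of each. L1cam and Cdh2, adhesion molecules, were the genes lower than in Unop nerves in PEG-fused PNAs (-1.07 and -0.76).

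Over the 5 lists, which hold 79 tested genes after shared ones are counted singly, 26 were higher and 11 lower in PEG-fused than in NC PNAs, beside 15.0% and 13.9% of all tested genes, so the count of lower genes was near the background. The sum of 37 fell to 24 without PEG 1 and to 20 without PEG 2. The lists were chosen with earlier results of these libraries known and are no independent evidence of a direction.

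By the root mean square difference of mean-centred log2 values over the 8 libraries, with no test, the genes nearest to each of 4 factors were sought among 16477 others. Nearest to Sox10 were Nr2f1 (0.105), Celsr2 (0.106) and Rnd2 (0.109), where the median over all genes was 0.736. Among the genes nearest to Egr2 were Aacs (0.189), which activates acetoacetate for lipid synthesis, and Slc25a33 (0.210), against a median of 1.11. Nearest to Jun were RGD1561662 (0.0858), Plpp5 (0.0918) and Cdc7 (0.105), against 0.757, and nearest to Sox2 were Ankrd6 (0.128), Plk2 (0.153) and Emp1 (0.159), against 0.787. The 8 libraries fall into 3 groups, so likeness mostly follows group means.

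The other cells of the nerve differed between the groups alongside the factors. A sum of 10 Schwann cell genes other than the 10 factors was 36313 to 39168 in PEG-fused PNAs, 16055 to 27394 in NC PNAs, and 250518 and 261052 in Unop nerves. Without S100b, the gene with the highest count, the sum was 19707 to 22889 in PEG-fused PNAs and 11179 to 19744 in NC PNAs, and PEG 1 and NC 1 overlapped. Of these 10 genes, S100b, Erbb3, Cdh19 and Matn2 were higher and Gfra3 was lower in PEG-fused than in NC PNAs, and 5 were not called. Over all tested genes, 15.0% were higher and 13.9% lower. The call for Gfra3 (-1.76, adjusted p = 0.0466 by limma) was lost without PEG 1, PEG 2 or any NC library, those for Cdh19 and Matn2 without PEG 2, and that for Matn2 also without PEG 3, NC 2 or NC 3. S100b, a calcium-binding protein of Schwann cells and fat, was 16606, 16280 and 16428 in PEG-fused PNAs, 7649, 6242 and 4875 in NC PNAs, and 167369 and 153431 in Unop nerves. Schwann cell markers were thus detected in all libraries, as the tissue label implies. The part of Schwann cell number in the values of Sox10 was not tested.

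T cell markers were lower in PEG-fused than in NC PNAs for 10 of 10 genes, beside 13.9% of all tested genes. Their sum ranged from 2798 to 7209 in PEG-fused PNAs, from 26082 to 48484 in NC PNAs and from 250 to 474 in Unop nerves. Macrophage markers were lower for 7 of 10, with sums of 112577 to 141545, 192622 to 222154, and 22965 to 38805. The other 3 were not called, and of these Cd68 had higher values in PEG-fused PNAs (20030, 20455 and 22451) than in NC PNAs (14060, 18968 and 16383), without overlap. C1qa, C1qb and C1qc had the highest NC means of the 10 and weigh most in the sum. B and plasma cell markers were lower for 5 of 5, with sums of 104 to 206, 562 to 1071, and 50.03 to 53.7. Between the grafts, Nab2, Junb, Id2 and Stat3, lower in PEG-fused than in NC PNAs, moved with these sums, while Sox10, Sox8, Sox2 and Jun moved against them. Against Unop nerves, where these sums were lowest, Jun was higher in both grafts and Sox2 in PEG-fused PNAs, while Sox10 was lower in both grafts. Zeb2 values were higher in PEG-fused PNAs, where macrophage and T cell sums were lower. The part of immune cells in these values was not tested.

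Fibroblast markers were higher in PEG-fused than in NC PNAs for 3 of 6 genes, with sums of 594156 to 876273 in PEG-fused PNAs, 337837 to 512197 in NC PNAs and 370524 to 493591 in Unop nerves. Jun, Egr1, Zeb2 and Nab2 are expressed in fibroblasts as well, and the part of these cells in their values was not tested. Endothelial markers had sums of 11429 to 14248, 10551 to 13199, and 16068 to 16799, with 1 of 5 tested genes lower in PEG-fused than in NC PNAs and Cldn5 at 0 reads in all libraries. Markers of dividing cells had sums of 13634 to 15662 in PEG-fused PNAs and 12582 to 14854 in NC PNAs, with 1 of 8 genes called, and of 694 to 830 in Unop nerves. Adipocyte markers summed to 278 to 390, 616 to 1640, and 30072 to 55227, and were lower in both grafts than in Unop nerves for 5 of 5 genes. They were also lower in PEG-fused than in NC PNAs for 4 of 5 genes. Muscle fibre markers were lower in PEG-fused than in NC PNAs for 2 of 6 genes. Over all tested genes, 15.0% were higher and 13.9% lower between the grafts, so the counts for endothelial and dividing cells were near these shares. Against Unop nerves, 28.6% of all tested genes were lower in PEG-fused PNAs and 32.3% in NC PNAs. Fat around the Unop nerves falls together with injury in every comparison with them, and the effects cannot be told apart.

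**Figure D5:**
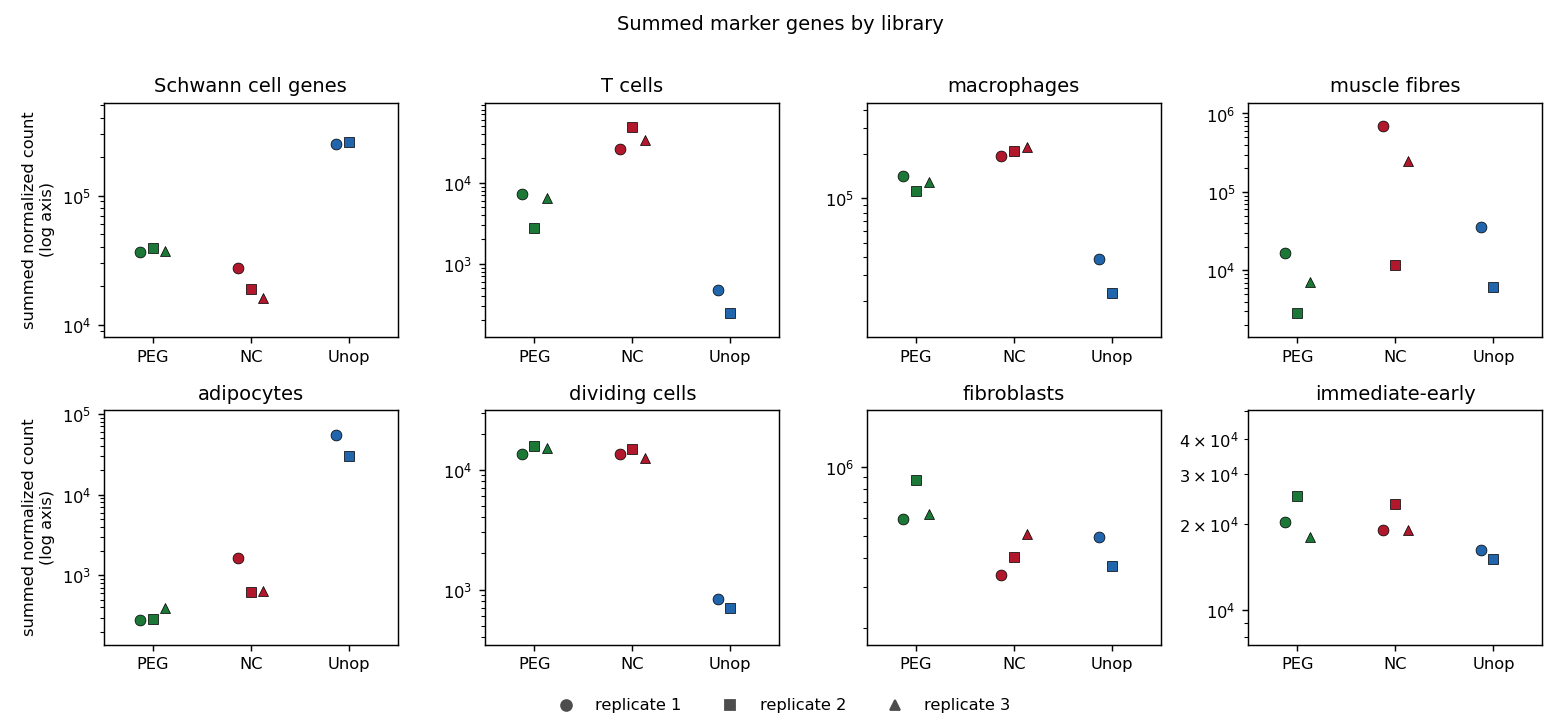
Summed normalized counts of marker genes for 8 of the lists by library, on log axes, with groups on the horizontal axis and 1 point for each library. Schwann cell genes are highest in Unop nerves, T cell markers are highest in NC PNAs (26082 to 48484), and muscle fibre markers reach 682788 in NC 1.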

How the data were processed

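RNA of 8 nerves (3 PEG-fused PNAs, 3 NC PNAs, 2 Unop) was poly-A enriched, made into stranded libraries and sequenced in paired ends. Per the labels and methods, the authors checked the reads with FastQC, aligned them to Rnor_6.0 with TopHat2 and counted them per Ensembl gene with HTSeq. The deposited signal values are these counts scaled by DESeq2, which divides each library by its median-of-ratios size factor. Tool versions are not given in the sources used here. Deposited fold changes and p-values of the authors were not used, and neither were files of single libraries that repeat the same values.

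Whole reads were recovered for 100% of values within 0.001, with size factors of 0.800 to 1.12, and libraries held 32472925 to 39959620 reads on genes. Genes that reached 10 normalized counts in 2 or more libraries, 16478 of 22798 with a read, were fitted with limma 3.58.1 (trend, R 4.3.3) on log2(value + 1), without a replicate block, as 3 contrasts of the group means. The prior degrees of freedom were 3.27. Alternatives were edgeR 4.0.16 and DESeq2 1.42.0 on the recovered reads, TMM scaling, a pseudocount of 8, no filter, a filter of 50 counts, the 2 groups compared fitted alone, a robust fit, a replicate block, a fold change over 2, each library left out in turn and, chosen after seeing the data, NC 2 as the only NC library and the Schwann cell sum without S100b. Limma was tested on simulated data. Ratios were tested in SciPy 1.17.1 (Python 3.11.15) over libraries. Replicate numbers were not taken as pairs.

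The 10 factors and all lists were chosen with earlier results of these data known. Named genes are the 10 factors, the called genes of each regulator and target list with the largest change (at most 4 in each direction), the 3 nearest genes of 4 factors and marker genes at 0 reads. S100b, Erbb3, Cdh19, Matn2, Gfra3, Cd68, C1qa, C1qb and C1qc were named outside this rule after their values were seen. Symbols are those of the deposited values. Among others, Egr4, Olig2, Pax3 and Tbx20 did not pass the filter, and Sox4, Foxd3, Cd79a, Pecam1, Myh1 and Myh4 were matched to no symbol, as was Gpr126, listed as Adgrg6. A few genes that the rule names are not reported here.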

Additional observations from a re-analysis of the deposited data

How the results depend on the processing

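Of 447 log2 fold changes of the 10 factors under the alternatives, 425 kept their direction and side of the threshold, 8 passed newly, 6 no longer passed and 8 changed sign. The sign changes were all of values that never passed. With each library left out, Egr1 in PEG-fused against NC PNAs ranged from -0.11 to 0.21 (-0.11 without PEG 2, -0.02 without NC 3), Olig1 in PEG-fused PNAs against Unop nerves from -0.52 (without Unop 2) to 1.40, Pou3f1 in NC PNAs against Unop nerves from -0.50 to 0.46 (-0.50 without NC 1, -0.20 without Unop 2), and Zeb2 in the same comparison from -0.34 to 0.13 (without Unop 2). With NC 2 as the only NC library, Egr1 was at -0.22 and Pou3f1 at -0.67 in these comparisons. The cause was not tested. The number of factors called in PEG-fused against NC PNAs was 5, ranged from 4 to 6 with each library left out and was 2 with a fold change over 2. For the 5 lists it was 37, ranged from 20 to 40 with each library left out (24 without PEG 1, 20 without PEG 2, with fewer samples) and was 15 with a fold change over 2, which asks more by construction. Against Unop nerves, 4 to 6 factors (PEG-fused) and 6 to 7 (NC) were called with each library left out. Where a group was left with 1 library, it is assumed to vary like the other groups. All 133 ratio differences kept their direction without each library in turn and with a pseudocount of 8. Olig1 has no value under the filter of 50 counts.

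Deviations of PEG and NC libraries with the same replicate number correlated at 0.108, 0.109 and -0.0502 over genes, so the numbers were not taken as pairs, and PEG 3 and NC 3 did not correlate best with their own number. With a replicate block, 4165 genes were called in PEG-fused against NC PNAs in place of 4763, and Olig1 passed (adjusted p = 0.0387). Other factors kept their calls under the block. No scaling moved the median of all genes by over 0.1 on the log2 scale. Olig1, at 4 to 47 reads, and the 2 Unop nerves limit what could be detected.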
